A study of Mus musculus with 6 samples.

Results

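Expression of 10 heat shock chaperone genes was examined in CD11b+ cells purified from the TC1 tumors that grew in MCT2 CO and in MCT2 KO mice. The genes were taken by name from the deposited count table, which lists 25701 genes, and all 10 were found and passed the filter on low counts that left 13485 genes for testing. From textbook knowledge, 7 of them are stress-inducible (*Hspa1a*, *Hspa1b*, *Hsph1*, *Hspb1*, *Dnajb1*, *Bag3* and *Hsp90aa1*) and 3 are expressed constitutively (*Hspa8*, *Hsp90ab1* and *Hsf1*), so the name inducible heat shock chaperones covers the first class only. No heat-treated or freshly lysed sample was among the groups compared, and induction itself was therefore not measured. The genes were chosen by name with their values in the MCT2 KO against MCT2 CO contrast known, so that their differences in that contrast are given as a description.

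Both groups were MCT2loxP/loxP; Cre+ mice on a C57BL/6 background that carried a systemic, tamoxifen-inducible Cre. From 8 weeks of age, MCT2 KO mice (3 samples) received tamoxifen and MCT2 CO mice (3 samples) received vehicle. TC1 cells, a mouse lung epithelial tumor line, were then injected under the skin of the flank, so the tumor cells themselves carried no deletion. Tumors were taken on day 24, digested with collagenase, and CD11b+ cells were selected with magnetic beads before poly-A RNA was sequenced. With no tamoxifen-treated mice lacking Cre or the loxP sites, tamoxifen, Cre activity and loss of MCT2 cannot be told apart.

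Heat shock proteins are molecular chaperones that bind unfolded proteins and help them fold, dissolve aggregates or pass to degradation. HSP70 proteins work in cycles of ATP binding and hydrolysis that are started by J-domain partners such as DNAJB1 and reset by nucleotide exchange factors such as HSPH1 and BAG3, and HSP90 proteins take over clients at a later stage of folding. When unfolded proteins accumulate, the transcription factor HSF1 is released from chaperones, forms trimers and binds heat shock elements, arrays of the unit nGAAn in alternating orientation, upstream of the inducible genes. In macrophages these genes are known to respond to fever, hypoxia, oxidants and the handling of cells.

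Promoter windows are shown for the members in which a motif of the heat shock element was found. RefSeq promoters on GRCm38.p6 were given for 6 members, *Hspa1a*, *Hspa1b*, *Hsph1*, *Hspb1*, *Dnajb1* and *Bag3*, and the 250 bases before each transcription start were searched. The motifs GAANNTTC and TTCNNGAA, a pair of units facing inward or outward, each read the same on both strands. Capitals mark the motif in these windows, written 5′ to 3′ on the strand of the gene.
Hspa1a, chr17:34972223-34972290, minus strand: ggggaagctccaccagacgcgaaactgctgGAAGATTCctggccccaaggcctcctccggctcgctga
Hspa1b, chr17:34959305-34959372, minus strand: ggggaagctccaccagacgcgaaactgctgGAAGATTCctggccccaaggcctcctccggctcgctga
Hspb1, chr5:135887772-135887859, plus strand: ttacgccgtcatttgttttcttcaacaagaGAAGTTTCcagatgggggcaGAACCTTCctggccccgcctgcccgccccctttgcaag
Hsph1, chr5:149636332-149636399, minus strand: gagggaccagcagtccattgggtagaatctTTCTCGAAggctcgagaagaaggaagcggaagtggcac

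At least 1 of the 2 motifs was found in 4 of the 6 members, whereas 14.5% of 27025 genes with a RefSeq promoter held at least 1 of them in the same 250 bases. *Hspa1a* and *Hspa1b* each held a single GAANNTTC, *Hspb1* held 2, and *Hsph1* held a single TTCNNGAA. Neither motif was found in the windows of *Dnajb1* and *Bag3*. The longer arrays TTCNNGAANNTTC and GAANNTTCNNGAA, which contain the shorter motifs, occurred in 0.514% of the genes and in 0 of the 6 members. Among the other chaperone and stress genes described below, the longer array was found in *Dnajb6*, *Hspd1* and *Hspe1*, which are named for this motif only. The upstream windows of *Hspa1a* and *Hspa1b* had 247 of 250 bases in common. Counted from 1 at the first base of the window, the *Hspa1a* base first, they differed by C44T, T47C and T249G, none of them in the motif. A match of letters is a description of the sequence and does not show that HSF1 was bound.

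Total counts ranged from 24863611 to 31713704 per sample. Of the 10 macrophage markers listed, 9 passed the filter, with summed levels of 5246 to 7098 CPM (counts scaled to library size) in MCT2 CO and 6311 to 10108 CPM in MCT2 KO, and only *Itgam*, the gene of CD11b, did not. Why *Itgam* fell below the filter in cells selected for CD11b was not tested. The sample records give lung as the tissue, but *Nkx2-1* was at 0 counts and *Sftpc*, *Sftpb* and *Scgb1a1* did not pass the filter. In a principal component analysis, MCT2 CO replicate 3 stood apart from the other samples on the first component (-22.71, against -3.13 and -3.54 in the other MCT2 CO samples and 8.54 to 11.84 in MCT2 KO) and MCT2 KO replicate 2 on the second (22.52, against -9.26 to 3.06). For some of the members, the fold change is therefore also given without MCT2 CO replicate 3 or without MCT2 KO replicate 2. *Slc16a7*, which encodes MCT2, was at 16.04, 11.04 and 11.21 CPM in MCT2 CO replicates 1 to 3 and at 8.22, 4.97 and 5.34 CPM in MCT2 KO replicates 1 to 3. All MCT2 KO samples were thus below all MCT2 CO samples, with transcript still counted in each (log2 fold change -1.05, standard error 0.24, edgeR adjusted p = 0.370). Counts per gene do not tell intact transcript from transcript of a recombined allele, so the degree of deletion was not measured. By DESeq2 on every gene with 1 or more counts, the adjusted p of *Slc16a7* was 0.00908, and it ranged from 0.00908 to 0.765 over the alternative fits.

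Across the 10 genes, every log2 fold change was negative, from -0.05 for *Hsp90ab1* to -1.60 for *Hspa1b*, with a median of -0.35. Of all genes tested, 49.9% had a negative value and the median was 0.0004. A gene was called where the Benjamini-Hochberg adjusted p was 0.05 or less and the log2 fold change was 0.58 or more in size. The quasi-likelihood test of edgeR called 0 of the 10 genes, as it did 0 of all 13485 (0%). A log2 fold change of -0.58 or below was found for 4 of the 10 (3.88% of all genes tested). At an unadjusted p under 0.05, 6 of the 10 were lower in MCT2 KO (5.6% of all genes tested) and 0 were higher (3.77%, with 9.37% in either direction). The MCT2 KO samples lay wholly below the MCT2 CO samples in 6 of the 10 (8.77% of all genes tested, with 15.8% separate in either direction). The Wald test of DESeq2, run on every gene with 1 or more counts, called 2 of the 10, *Hspa1b* and *Hsph1*, both lower. Of the 14202 genes to which that run gave an adjusted p, 0.352% were called lower. Run on the 13485 genes, it called the same 2 (0.334%). Since the genes were chosen for this contrast, nothing further is read from these counts. In bulk RNA, fewer cells of a type and less RNA per cell cannot be told apart.

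**Figure D1:**
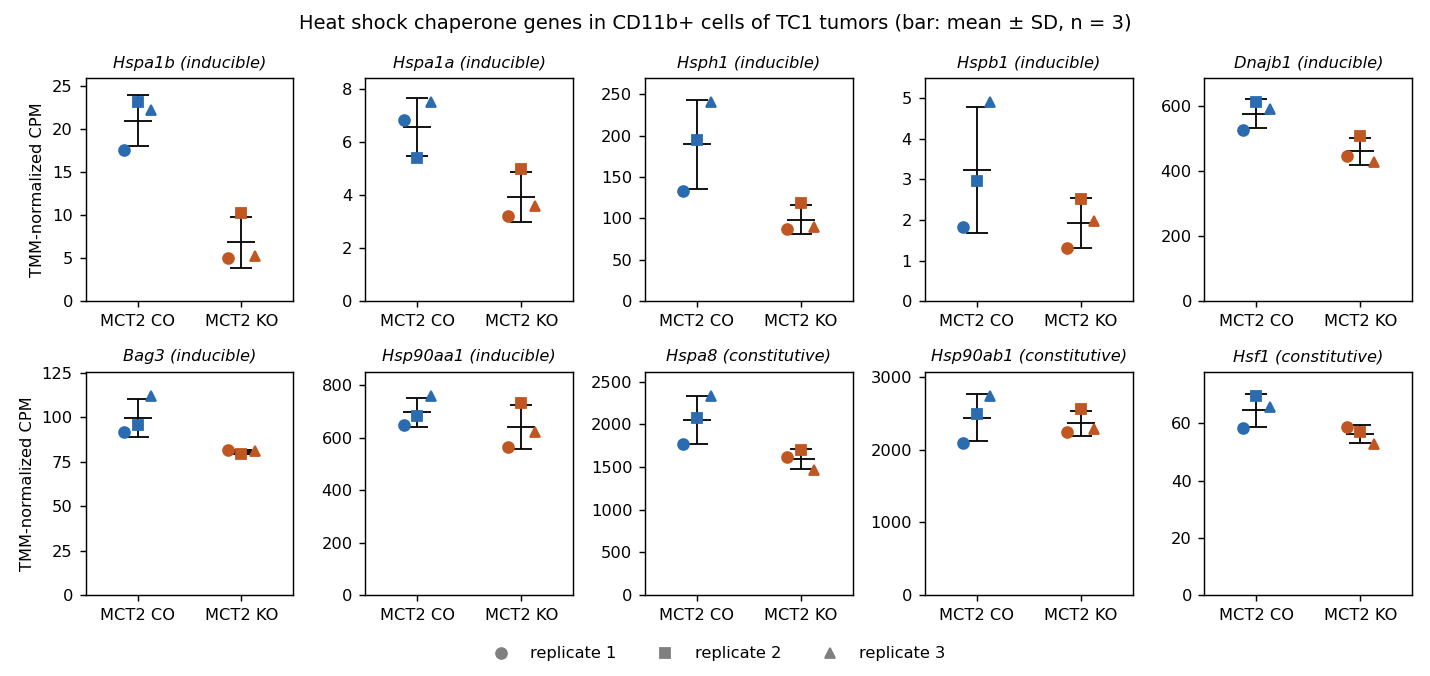
TMM-normalized CPM (vertical axis, linear from 0) of the 10 heat shock chaperone genes in each MCT2 CO and MCT2 KO sample. Points are samples, marked by replicate number, and bars are the mean ± SD (n = 3). All MCT2 KO points lie below all MCT2 CO points for Hspa1b, Hspa1a, Hsph1, Dnajb1, Bag3 and Hspa8.

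The stress-inducible cytosolic HSP70 is encoded by a pair of intronless genes that lie close together on chromosome 17 (GRCm38, minus strand), *Hspa1b* (ENSMUSG00000090877, 34956436 to 34959238) and *Hspa1a* (ENSMUSG00000091971, 34969190 to 34972156). The replicates 1 to 3 held 528, 602 and 593 *Hspa1b* reads in MCT2 CO, and 121, 336 and 131 in MCT2 KO. Normalized by TMM, *Hspa1b* stood at 17.6, 23.2 and 22.3 CPM in MCT2 CO and 5.07, 10.3 and 5.26 CPM in MCT2 KO. The groups did not overlap, and MCT2 KO replicate 2 lay closest to the MCT2 CO samples. The mean was 21.03 ± 2.99 CPM (SD, n = 3) in MCT2 CO and 6.88 ± 2.97 CPM (SD, n = 3) in MCT2 KO. For *Hspa1b* the log2 fold change was -1.60 (standard error 0.27), rank 20 from the lowest of 13485, with an edgeR adjusted p of 0.370. Its adjusted p was 1.92e-05 by the wider DESeq2 run and 0.0153 by edgeR without MCT2 KO replicate 2, where its log2 fold change was -2.02. Over the 14 alternative fits its adjusted p ranged from 1.92e-05 to 0.765, the highest without MCT2 CO replicate 3, and its log2 fold change from -2.02 to -1.41.

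The counts of *Hspa1a* were 204, 140 and 199 in MCT2 CO and 77, 162 and 89 in MCT2 KO. These were 6.80, 5.38 and 7.49 CPM in MCT2 CO and 3.23, 4.97 and 3.58 CPM in MCT2 KO. The groups did not overlap, but replicate 2 of MCT2 KO came close to replicate 2 of MCT2 CO. The mean was 6.56 ± 1.07 CPM (SD, n = 3) against 3.93 ± 0.923 CPM (SD, n = 3), and the log2 fold change was -0.73 (standard error 0.22, edgeR adjusted p = 0.429). Reads that lie wholly in sequence shared by the pair cannot be assigned to either gene. Of the 50-base windows of the *Hspa1a* transcript, 58.8% also occur in *Hspa1b*, and 62.3% of those of *Hspa1b* occur in *Hspa1a*. In *Hspa8*, 0 of the windows of either transcript occur. With the counts of the pair summed, the level was 24.4, 28.5 and 29.8 CPM in MCT2 CO and 8.30, 15.3 and 8.84 CPM in MCT2 KO, and its log2 fold change was -1.34 (standard error 0.23, edgeR adjusted p = 0.370).

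A further limit applies to *Hspa1a*. In the annotation, 74.99% of its exon lies within *Gm20481*, a protein-coding model on the plus strand (17, 34969912 to 34972136) that had 0 counts in all 6 samples. The counting behaved likewise for other nested genes: of 472 protein-coding genes lying wholly inside genes of the opposite strand, 471 were at 0 counts (99.8%), against 20.0% of 16261 that overlap no listed gene. The part of the *Hspa1a* exon outside *Gm20481* measures 742 bases, and none of its 673 windows of 50 bases occurs in *Hspa1b*. If only this part was counted for *Hspa1a*, the sequence shared by the pair bears on the value of *Hspa1b* and not on that of *Hspa1a*. *Hspa1b* overlaps no other listed gene, so the share of the pair's reads given to each is not a ratio of their transcripts. *Hspa1b* took 72.1%, 81.1% and 74.9% of the pair's reads in MCT2 CO and 61.1%, 67.5% and 59.6% in MCT2 KO, with no overlap between the groups.

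*Hsph1* (ENSMUSG00000029657, chromosome 5, minus strand, 149614287 to 149636376) encodes HSP110, a nucleotide exchange factor for HSP70. Its level was 133, 195 and 240 CPM in MCT2 CO and 86.8, 118 and 89.7 CPM in MCT2 KO. The MCT2 CO samples were spread widely, with replicate 3 highest, and the lowest of them was above the highest MCT2 KO sample, again replicate 2. The mean was 190 ± 53.6 CPM (SD, n = 3) against 98.3 ± 17.4 CPM (SD, n = 3), and the log2 fold change was -0.95 (standard error 0.21, edgeR adjusted p = 0.370). The wider DESeq2 run gave *Hsph1* an adjusted p of 0.00676, and its adjusted p ranged from 0.00626 to 0.801 over the alternatives. Without MCT2 CO replicate 3, the log2 fold change was -0.74.

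*Dnajb1* (ENSMUSG00000005483, chromosome 8, plus strand, 83608193 to 83612653) encodes the J-domain protein HSP40 that delivers clients to HSP70 and stimulates its ATPase. It was at 527, 612 and 592 CPM in MCT2 CO and at 447, 508 and 428 CPM in MCT2 KO. The groups did not overlap, and MCT2 KO replicate 2 came closest to MCT2 CO replicate 1, the lowest of its group. The mean was 577 ± 44.2 CPM (SD, n = 3) against 461 ± 41.3 CPM (SD, n = 3), and the log2 fold change was -0.32 (standard error 0.11, edgeR adjusted p = 0.444).

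*Bag3* (ENSMUSG00000030847, chromosome 7, plus strand, 128523616 to 128546981) encodes a cochaperone that links HSP70 and small heat shock proteins to autophagy. Its level was 91.4, 95.6 and 112 CPM in MCT2 CO and 81.5, 79.4 and 81.1 CPM in MCT2 KO. The MCT2 KO samples were nearly equal and all lay below the MCT2 CO samples. The mean was 99.6 ± 10.8 CPM (SD, n = 3) against 80.7 ± 1.10 CPM (SD, n = 3), and the log2 fold change was -0.30 (standard error 0.09, edgeR adjusted p = 0.430). A gene model of unknown type, *2610306O10Rik*, lies within the span of *Bag3* but covers 0% of its exons and had 0 counts.

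*Hspb1* (ENSMUSG00000004951, chromosome 5, plus strand, 135887919 to 135889563), a small heat shock protein that holds unfolded proteins without ATP, was near the lower end of what could be counted. It had 55, 77 and 130 counts in MCT2 CO and 31, 82 and 49 counts in MCT2 KO, or 1.83, 2.96 and 4.89 CPM and 1.30, 2.52 and 1.97 CPM. The groups overlapped. The log2 fold change of *Hspb1* was -0.73 (standard error 0.39, edgeR adjusted p = 0.596), and without MCT2 CO replicate 3, the highest sample, it was -0.30.

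The HSP90 pair differed less between the groups. *Hsp90aa1* (ENSMUSG00000021270, chromosome 12, minus strand, 110690605 to 110702728), the stress-inducible form, was at 648, 681 and 758 CPM in MCT2 CO and at 566, 733 and 620 CPM in MCT2 KO. *Hsp90ab1* (ENSMUSG00000023944, chromosome 17, minus strand, 45567775 to 45573271), the constitutive form, was at 2089, 2490 and 2734 CPM in MCT2 CO and at 2238, 2557 and 2286 CPM in MCT2 KO. Both pairs of groups overlapped. The log2 fold change was -0.12 (standard error 0.12, edgeR adjusted p = 0.783) for *Hsp90aa1* and -0.05 (standard error 0.13, edgeR adjusted p = 0.932) for *Hsp90ab1*. Without MCT2 KO replicate 1, MCT2 CO replicate 3 or MCT2 KO replicate 2, that of *Hsp90aa1* was -0.03, -0.05 and -0.23. That of *Hsp90ab1* turned to 0.04 without MCT2 CO replicate 3 and was 0.0001 without MCT2 KO replicate 1.

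*Hspa8* (ENSMUSG00000015656, chromosome 9, plus strand, 40800984 to 40810087) encodes HSC70, the constitutive HSP70 that also strips clathrin from vesicles. Its level was 1769, 2068 and 2330 CPM in MCT2 CO and 1622, 1697 and 1463 CPM in MCT2 KO. The groups did not overlap, with the lowest MCT2 CO sample, replicate 1, close to the highest MCT2 KO sample, replicate 2. The mean was 2056 ± 281 CPM (SD, n = 3) against 1594 ± 119 CPM (SD, n = 3), and the log2 fold change was -0.37 (standard error 0.13, edgeR adjusted p = 0.488). *Hspa8* was the only constitutive member whose groups were separate.

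*Hsf1* (ENSMUSG00000022556, chromosome 15, plus strand, 76477422 to 76501913) encodes the transcription factor itself, which is activated at the level of the protein, so that its transcript does not report its activity. It was at 58.4, 69.6 and 65.7 CPM in MCT2 CO and at 58.9, 56.9 and 52.8 CPM in MCT2 KO. The groups overlapped through MCT2 CO replicate 1. The log2 fold change was -0.20 (standard error 0.09, edgeR adjusted p = 0.557).

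**Figure D2:**
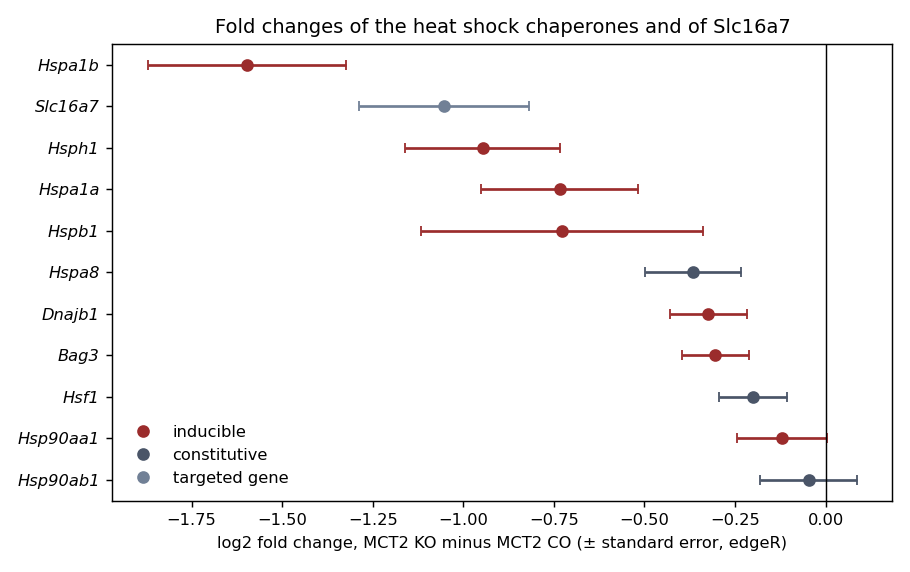
Log2 fold change, MCT2 KO minus MCT2 CO (horizontal axis), of the 10 genes and of the targeted gene Slc16a7, with bars of 1 standard error from edgeR. Hspa1b is farthest from 0 at -1.60, Slc16a7 lies at -1.05, and the HSP90 genes lie nearest to 0.

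Setting the classes side by side, the 7 inducible members had a median log2 fold change of -0.73 and the 3 constitutive members one of -0.20. The groups were separate, with MCT2 KO lower, for 5 of the 7 and for 1 of the 3, against 8.77% of all genes tested. The difference between the mean log2 fold changes of the classes was -0.475, and it lay between -0.609 without MCT2 KO replicate 2 and -0.373 without MCT2 KO replicate 1. The median of the inducible members depended on a single library, being -0.31 without MCT2 CO replicate 3, where that of the constitutive members was -0.19. Within each sample, the mean log2 CPM of the inducible members minus that of the constitutive members was -3.54, -3.55 and -3.38 in MCT2 CO and -4.18, -3.75 and -3.97 in MCT2 KO. The MCT2 KO samples all lay under the lowest MCT2 CO sample in this measure, which apart from the prior count does not depend on the scaling of the libraries, and MCT2 KO replicate 2 was again the closest. A mean of log2 values gives sparsely counted genes the same weight as abundant ones. The summed level of the inducible members overlapped between the groups, at 1427 to 1737 CPM in MCT2 CO and 1191 to 1456 CPM in MCT2 KO.

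Ratios within a sample differed from gene to gene. For every 1000 reads of *Hspa8*, the *Hspa1a* and *Hspa1b* pair had 13.8, 13.8 and 12.8 reads in MCT2 CO and 5.12, 9.01 and 6.04 reads in MCT2 KO. *Hsph1* had 75.4, 94.4 and 103 reads for every 1000 of *Hspa8* in MCT2 CO and 53.5, 69.7 and 61.3 in MCT2 KO. Neither of these ratios overlapped between the groups, and for *Hspa1b* alone the range was 9.58 to 11.2 in MCT2 CO and 3.13 to 6.08 in MCT2 KO. The remaining inducible members, and *Hspa1a* on its own, overlapped between the groups in relation to *Hspa8*. *Dnajb1* had 298, 296 and 254 reads for every 1000 of *Hspa8* in MCT2 CO and 276, 299 and 293 in MCT2 KO. *Bag3* had 51.7, 46.2 and 48.0 in MCT2 CO and 50.2, 46.8 and 55.4 in MCT2 KO. The ratios of *Hspa1a* (2.60 to 3.85 against 1.99 to 2.93), *Hspb1* (1.04 to 2.099 against 0.801 to 1.48) and *Hsp90aa1* (325 to 367 against 349 to 432) overlapped, and so did that of *Hsf1*. The ratio of *Hsp90ab1* was higher in all MCT2 KO samples, at 1380 to 1562 against 1174 to 1204, and *Hspa8* itself was lower there. Within the HSP90 pair, *Hsp90aa1* took 23.7%, 21.5% and 21.7% of the reads of the HSP90 pair in MCT2 CO and 20.2%, 22.3% and 21.4% in MCT2 KO, and the groups overlapped.

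**Figure D3:**
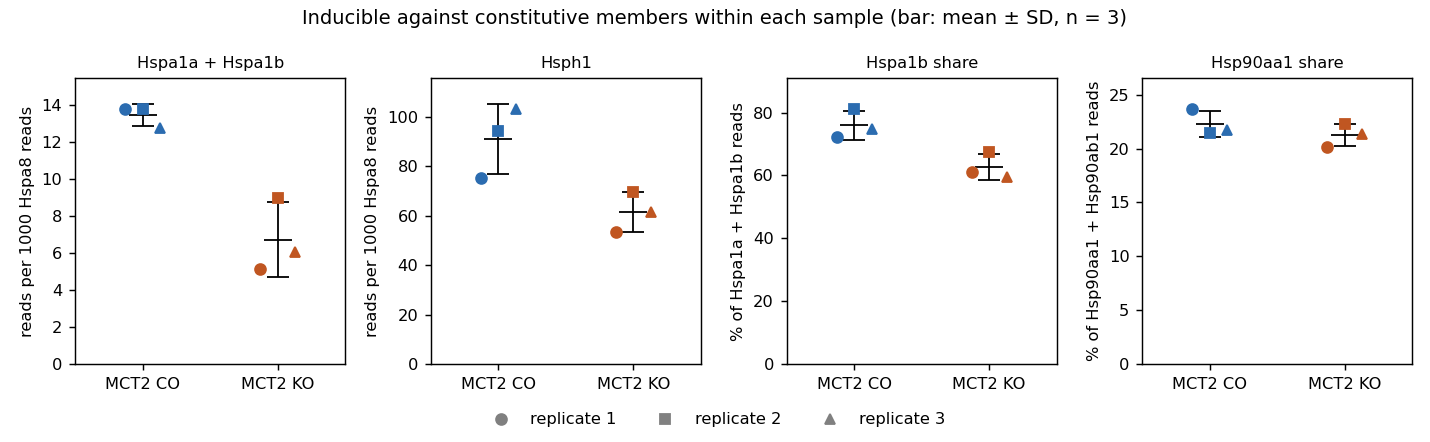
Reads of the Hspa1a and Hspa1b pair and of Hsph1 for every 1000 Hspa8 reads, the share of the pair's reads counted for Hspa1b, and the share of HSP90 reads counted for Hsp90aa1 (vertical axes, linear from 0) in each sample. Points are samples, marked by replicate number, with the mean ± SD (n = 3). The first 3 measures do not overlap between MCT2 CO and MCT2 KO, and the last does.

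The members' levels were compared with each other per kilobase of the principal transcript. Gene lengths in the deposited counts are whole gene spans, so reads in introns may have been counted. That would raise every member but the intronless *Hspa1a* and *Hspa1b*, and it was not corrected for. In MCT2 CO, *Hsp90ab1* at 967 ± 129 CPM per kb and *Hspa8* at 859 ± 117 CPM per kb were highest and overlapped in their range over samples. *Hsp90aa1* at 212 ± 17.2 CPM per kb and *Dnajb1* at 193 ± 14.8 CPM per kb followed and likewise overlapped, as did *Hsph1* at 49.9 ± 14.1 and *Bag3* at 38.9 ± 4.21 CPM per kb. *Hsf1* came next at 30.98 ± 2.73 CPM per kb, below every sample of *Bag3*. *Hspa1b* at 7.50 ± 1.07, *Hspb1* at 3.58 ± 1.71 and *Hspa1a* at 2.21 ± 0.362 CPM per kb were lowest, and the last pair overlapped. Per kilobase of exon outside other genes, *Hspa1a* was at 8.84 CPM per kb in MCT2 CO and 5.29 in MCT2 KO, so its place in the order depends on which bases could be counted. *Hspa1b* was divided by its whole transcript, although 62.3% of its 50-base windows occur in *Hspa1a*. How reads in that sequence were counted is not known, so the place of *Hspa1b* and the order of the pair are uncertain too. Per kilobase of all annotated exons, *Hsf1* was at 9.09, *Hsph1* at 26.1 and *Hspa8* at 478 CPM per kb in MCT2 CO, against 7.50 for *Hspa1b*, 38.9 for *Bag3* and 813 for *Hsp90ab1*, so the places of *Hsph1* and *Hsf1* and the gap below *Hsp90ab1* also depend on the length used. In MCT2 KO, *Hspa1b* at 2.46 ± 1.06 and *Hspb1* at 2.14 ± 0.675 CPM per kb overlapped in range, and *Hsph1* at 25.9 ± 4.59 CPM per kb overlapped with both *Bag3* at 31.5 ± 0.428 and *Hsf1* at 26.97 ± 1.501 CPM per kb. The 10 genes together took 0.534%, 0.624% and 0.687% of the normalized reads in MCT2 CO and 0.511%, 0.577% and 0.503% in MCT2 KO, with overlap.

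Among the replicates of a group, the members tended to share their order, with the library scaling in common. Among the MCT2 CO samples, replicate 1 was the lowest in 9 of the 10 genes and replicate 3 the highest in 7. Among the MCT2 KO samples, replicate 2 was the highest in 8 of the 10 and replicate 1 the lowest in 6. The share of all genes tested with these orders was not computed, so it is not known whether they are particular to the members. The samples that stood apart in the principal component analysis were thus the highest of their group for most members. For *Hspa1b*, the deviations from its mean over the 6 samples were 0.59, 0.98 and 0.93 log2 units in MCT2 CO and -1.19, -0.18 and -1.14 in MCT2 KO.

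**Figure D4:**
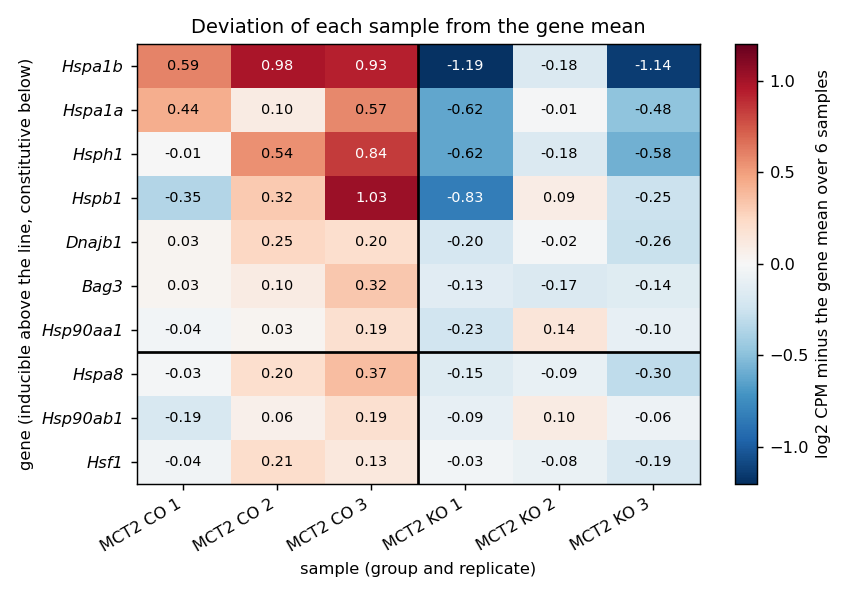
Log2 CPM of each of the 10 genes (rows) in each sample (columns) minus the mean of that gene over the 6 samples, with the value printed in each cell and red for above and blue for below the mean. The inducible genes stand above the horizontal line and the constitutive genes below it. Hspa1b spans the widest range, from -1.19 to 0.98, and MCT2 KO replicate 2 is closer to 0 than the other MCT2 KO samples for Hspa1b, Hspa1a and Hsph1.

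By the root mean square difference of centred log2 CPM over the 6 samples, the genes most like *Hspa1b* among 13484 others were *Ret* (0.28), *Kcnt1* (0.29), *Sfrp2* (0.30), *Gbx1* (0.33) and *Gm27027* (0.36). All 5 were sparsely counted, with a highest mean of 1.62 CPM in MCT2 CO. Of the members, *Hsph1* was rank 20 in likeness (0.45), *Hspa1a* rank 55 (0.53) and *Hspb1* rank 177 (0.62), while *Hspa8* was rank 550 and *Hsp90ab1* rank 3416. These ranks rest on 6 samples and follow in large part from the difference between the groups.

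The other chaperone and stress genes were grouped into 11 lists with 115 genes in the table, of which 111 passed the filter. EdgeR called 0 of the 111 in either direction (0% of all genes tested). At an unadjusted p under 0.05 by edgeR, 17 were lower (5.6% of all genes tested) and 1 was higher (3.77%). Both DESeq2 runs called *Egr3* alone, as lower in MCT2 KO (0.352% of the genes with an adjusted p in the wider run and 0.334% of the 13485). Of the 111, 73 (65.8%) had a negative log2 fold change, with a median of -0.05, against 49.9% and 0.0004 over all genes tested. The groups were separate and lower in MCT2 KO for 19 of the 111 (8.77% of all genes tested) and higher for 2 (7.07%). The values below are therefore descriptions of direction and size.

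Among the partners of HSP70, *Dnaja1*, a cytosolic J-domain protein, was at 179, 176 and 210 CPM in MCT2 CO and at 122, 132 and 138 CPM in MCT2 KO. Its groups did not overlap, with a log2 fold change of -0.53 (standard error 0.10, edgeR adjusted p = 0.370). Its adjusted p was 0.00475 by the wider DESeq2 run, which did not call it because its fold change was under the threshold. Over the 17 genes of the J-domain list, the median log2 fold change was -0.002, with 9 negative and 8 positive. *Dnajb4* and *Dnajb2* had log2 fold changes of -0.24 and -0.20, with separate groups and edgeR adjusted p values of 0.497 and 0.533. Of the 8 other HSP70 and HSP110 genes 6 were negative (median -0.11), and *Hspa4l*, another HSP110, was at -0.19 with separate groups (edgeR adjusted p = 0.507). The 9 nucleotide exchange and adaptor genes had a median of -0.01, and *Stip1*, which bridges HSP70 and HSP90, was at -0.07 with overlapping groups.

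Among the HSP90 cochaperones 10 of 12 were negative (median -0.10), with *Chordc1* at -0.21 and separate groups (edgeR adjusted p = 0.499). Of the 5 other small heat shock protein genes tested 3 were negative (median -0.18). *Hspb7*, at 0.361 to 1.10 CPM, had a log2 fold change of -0.73 and *Cryab*, at 3.64 to 7.95 CPM, one of 0.43 (edgeR adjusted p = 0.545 and 0.644). All 4 tested genes of heat shock factors and their regulators were negative (median -0.13), including *Hsf4* at -0.31 (edgeR adjusted p = 0.533) and *Ier5*, a target and regulator of HSF1, at -0.21 (edgeR adjusted p = 0.582). The cytosolic chaperonin TRiC lay on the other side of 0, with 6 of 8 positive and a median of 0.06, and *Cct7* and *Tcp1* at 0.15 and 0.13 had overlapping groups.

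Chaperones of other compartments were mixed. Of the 13 endoplasmic reticulum genes 9 were negative (median -0.03), but 3 had separate groups below MCT2 CO: the HSP70 of that compartment *Hspa5* at -0.30, its J-domain partner *Dnajb9* at -0.46 and the collagen chaperone *Serpinh1* at -0.54 (edgeR adjusted p = 0.491, 0.380 and 0.436). *Serpinh1* was highest in MCT2 CO replicate 3, at 471 CPM against 244 to 379 CPM in the other samples. The 8 mitochondrial genes had a median of -0.02, with *Lonp1* at 0.25 and overlapping groups and *Trap1*, the mitochondrial HSP90, at 0.14 with MCT2 KO above MCT2 CO (edgeR adjusted p = 0.502 and 0.598).

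**Figure D5:**
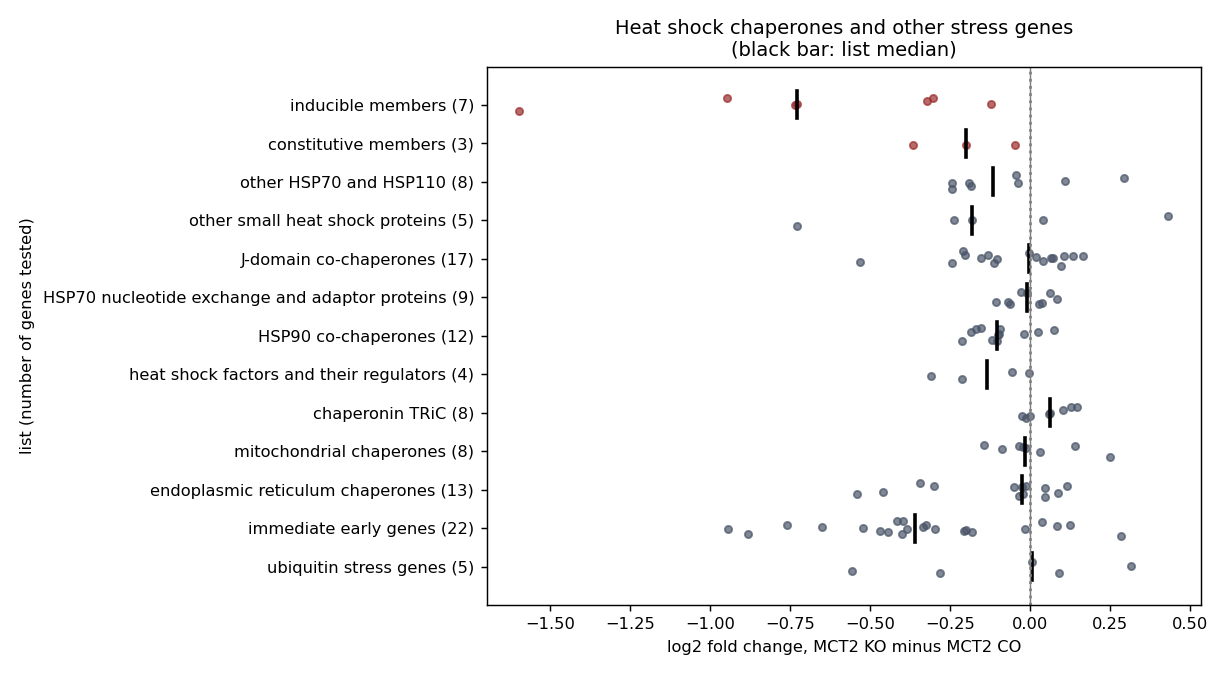
Log2 fold change, MCT2 KO minus MCT2 CO (horizontal axis), of each tested gene in the inducible and constitutive members (red) and in 11 other chaperone and stress lists (grey), with the number of genes tested in brackets. Black bars are list medians, the grey lines mark 0 and the median of all genes tested, and the vertical scatter of points has no meaning. Medians run from -0.73 for the inducible members to 0.06 for the chaperonin TRiC, with the immediate early genes at -0.36.

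Immediate early genes, which like heat shock genes respond within minutes to stress and handling, had mostly negative values, as had the members. Of 22 tested, 18 were negative (median -0.36), 7 were lower at an unadjusted p under 0.05 (5.6% of all genes tested) and 5 had separate groups with MCT2 KO lower (8.77%). *Egr3* was at 118, 111 and 198 CPM in MCT2 CO and at 78.0, 82.5 and 61.3 CPM in MCT2 KO, with a log2 fold change of -0.94 (edgeR adjusted p = 0.380). The mean log2 CPM of the 22 genes was 8.88, 8.87 and 9.05 in MCT2 CO and 8.85, 8.36 and 8.57 in MCT2 KO. Its lowest sample was MCT2 KO replicate 2, whereas the mean log2 CPM of the inducible chaperones was 5.04, 5.54 and 5.17 in MCT2 KO, highest in that replicate. *Bag3* was the exception among them, with its lowest value in MCT2 KO replicate 2. The list of ubiquitin stress genes had a median of 0.01 over its 5 genes, with *Hmox1* at 0.31 and overlapping groups (edgeR adjusted p = 0.732).

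Markers of other cell types differed between the samples as well. All 7 fibroblast markers had a negative log2 fold change, with summed levels of 2045, 2239 and 3355 CPM in MCT2 CO and 1819, 1815 and 1708 CPM in MCT2 KO, and MCT2 CO replicate 3, highest in 7 of the 10 members, was also the highest in these. All 9 tested macrophage markers had a positive value, with overlapping sums, and the sum was lowest, at 5246 CPM, in MCT2 CO replicate 3. Of the B cell markers 7 of 8 were negative, with sums of 86.8 to 100 CPM in MCT2 CO and 28.1 to 117 CPM in MCT2 KO, the lowest in MCT2 KO replicate 2. Of the neutrophil markers 5 of 6 were positive, with a median log2 fold change of 1.70 and a highest of 4.82, farther from 0 than any member. Their groups were separate and higher in MCT2 KO for 4 of the 6 (7.07% of all genes tested), although the sums overlapped at 78.9 to 99.6 CPM and 59.9 to 167 CPM. The wider DESeq2 run called 4 of the neutrophil markers higher (0.232% of its genes with an adjusted p). It called 3 of the fibroblast, 2 of the B cell and 1 of the T and NK cell markers lower (0.352% of its genes with an adjusted p). The T and NK cell (16.3 to 93.7 CPM), dendritic cell (355 to 974 CPM), endothelial (83.6 to 140 CPM) and epithelial (13.7 to 33.2 CPM) sums overlapped between the groups. The part of the cell makeup and of the handling of the cells in the levels of the heat shock genes was not tested.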

How the data were processed

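CD11b+ cells from TC1 tumors were profiled in 3 MCT2 CO and 3 MCT2 KO samples by poly-A RNA-seq with a stranded library kit. The authors aligned reads to GRCm38 with STAR 2.7.11b and deposited raw counts per gene from featureCounts 2.1.1 for 25701 genes, with replicates kept apart. The annotation, strand and multi-mapping settings of the counting are not given in the sources used here, and gene lengths in the table are whole gene spans. Gene positions were taken by Ensembl identifier from GENCODE M21 (GRCm38), with which 98.1% of the identifiers in common share the span length but only 2.4% the position, so the table's own coordinates are not those of the GRCm38 build named and were not used. Promoters are from RefSeq (GRCm38.p6).

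Counts were analysed with edgeR 4.0.16 in R 4.3.3. The filter was filterByExpr with a minimum count of 10 and a minimum total of 15, and 13485 genes passed. They were normalized by TMM and tested by quasi-likelihood without covariates, p values were adjusted by Benjamini-Hochberg over all of them, and calls needed an adjusted p of 0.05 or less with a log2 fold change of 0.58 or more in either direction. DESeq2 1.42.0, limma-voom 3.58.1, other scalings and filters, a replicate block and each sample left out in turn were the alternatives. The procedure was tested on simulated data with 200 changed genes. The edgeR test recovered 63% of the 100 genes changed 2-fold and 99% of the 100 changed 4-fold, and 8.5% of its calls were false. DESeq2 recovered 71% and 97% of them, and 14.7% of its calls were false. The simulated counts were drawn independently, without the shared differences that set MCT2 CO replicate 3 and MCT2 KO replicate 2 apart. These shares therefore do not tell how often changes of such size would be called in the real samples. All pairs of samples within a group differed by more than sampling noise. CPM are TMM-normalized, and log2 CPM use a prior count of 2. The labels do not say that the samples of a group came from separate mice, so p-values measure the spread between these samples, which may be technical. Total counts were 24863611 or more. Counting error matters mainly for *Hspb1*, *Hspa1a* and other genes below about 10 CPM, and for *Hspa1b* in MCT2 KO replicates 1 and 3 (5.07 and 5.26 CPM).

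The members and gene lists were chosen with earlier results of these data known. Named were the 10 members, *Slc16a7*, from each other list up to 3 genes with the smallest unadjusted p, the 5 genes most like *Hspa1b*, genes overlapping a member, and markers needed to check the labels. A gene that this rule would name is not reported here.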

Additional observations from a re-analysis of the deposited data

How the results depend on the processing

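Of 140 values of the members' log2 fold changes under the alternatives, 133 kept their direction and their side of the threshold, 5 passed it (*Hspa1b* in 3 fits and *Hsph1* in 2) and 2 changed sign, both of *Hsp90ab1*, at 0.0438 without MCT2 CO replicate 3 and 0.000102 without MCT2 KO replicate 1, in a range of -0.145 to 0.0438 with each sample left out. The count of genes called, 0 by edgeR, was 79 by DESeq2 on the same genes, 83 by DESeq2 on every gene with 1 or more counts and 2 with no filter beyond 1 count, and it ranged from 0 to 2 with each sample left out. The count of members called was 2 by DESeq2 on either set of genes and ranged from 0 to 1 with each sample left out, the 1 being *Hspa1b* without MCT2 KO replicate 2. The count among the other chaperone and stress genes was 1 by DESeq2 on either set of genes, *Egr3*, and 0 with each sample left out. The cause of these differences was not tested. The difference between the classes of members moved by less than 1 SD between replicates in all 17 alternatives, the lowest being -0.609 and the highest -0.373.

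The titles give both groups replicate numbers 1 to 3, but same-numbered samples deviated together in only the first pair (correlations of 0.216, -0.247 and -0.161), and not every sample correlated best with its own number, so the numbers were not taken as pairing. With a replicate block, 0 genes were called and 1048 genes, against 1264, had an unadjusted p under 0.05. The log2 fold change of *Hspa1b* was -1.67 and the difference between the classes -0.482 under the block. With 3 samples a group, the spread itself is poorly known.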
